A study of Mus musculus with 4 samples.

Results

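Pax7 binding was examined around the collagen genes other than those of collagen V in mouse ES cell-derived muscle progenitors. The members were the autosomal protein_coding genes of GENCODE vM1 (mouse build NCBIM37, the same sequence as mm9) whose symbol has the form Col, a type number, a and a chain number, without Col5a1, Col5a2 and Col5a3, together with every Pax7 ChIP-seq peak whose summit lay within 50 kb of the transcription start site (TSS) of one of them. Of 43 genes with such a symbol, 2 lay on the X chromosome and 3 encoded collagen V, which left 38. Around these 38 TSSs there were 63 distinct peaks, or 0.306% of the 20579 in the genome. As 4 of the peaks lay near a pair of collagen genes, there were 67 gene and peak pairs.

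The cells were iPax7 mouse ES cells, in which doxycycline (Dox) switches on a Pax7 transgene. They were differentiated as embryoid bodies in serum, treated with 1 µg/ml Dox from day 3, sorted as PDGFRα+FLK1- cells on day 5 and harvested on day 9, after 6 days of Dox. The libraries fell into 2 groups, 2 of chromatin precipitated with an antibody to Pax7 and 2 of input chromatin. All 4 came from Dox-treated cells, in which the transgene was switched on, and no uninduced sample was compared. The peaks do not separate Pax7 made from the transgene from any made by the cells' own gene. One list of peaks was used, called on the merged Pax7 libraries against the merged inputs. It gives no value per replicate and no read depth, and a peak list cannot show whether the cells carried the markers of muscle progenitors or whether any collagen gene was expressed.

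Collagens are triple-helical proteins of the extracellular matrix. The fibrillar types form the tensile fibres of tendon, skin and bone, type IV forms the sheet of basement membranes, and type VI forms beaded filaments that link to both. In skeletal muscle the myofibre and its satellite cells, the Pax7-expressing stem cells of the tissue, lie under a basement membrane rich in collagen IV, with collagen VI around it. Pax7 is a transcription factor with a paired domain and a homeodomain, each of which reads its own DNA motif, and much of its binding is known to lie away from promoters.

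The sequences of 6 of the named sites are given here, namely the 2 strongest, 1 of the 2 promoter sites, and 3 others among the 10 strongest. These 3 show a further motif, a pair of E-boxes, or no motif at a site 12.1 kb from the adjoining starts of 2 collagen genes. Each is printed as the summit base with 50 bases on either side, read from the plus strand of NCBIM37. Capitals mark the motifs that were searched on both strands: the paired-box core GTCACG (or its complement CGTGAC), ATTAGTCA, and the E-box CAGCTG, which myogenic bHLH factors bind. In ATTAGTCA a homeobox core, ATTA, adjoins GTCA, which is the start of the paired-box core but not all of it. The first sequence is from the strongest of the collagen peaks, 25.4 kb upstream of Col6a6 (chr9:105755720-105755820). The next pair are the strongest and the promoter peak of Col19a1 (chr1:24598071-24598171 and chr1:24593839-24593939), which both hold the paired-box core. The site upstream of Col24a1 (chr3:144926053-144926153) holds ATTAGTCA, and that in an intron of Col7a1 (chr9:108865750-108865850) holds a pair of E-boxes. The last (chr8:11300661-11300761), in an intron of Col4a1 and 12.1 kb from the adjoining starts of Col4a1 and Col4a2, holds none of them.
Col6a6, 25.4 kb upstream: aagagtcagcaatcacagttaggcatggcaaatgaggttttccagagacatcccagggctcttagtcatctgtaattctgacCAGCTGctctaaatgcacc
Col19a1, 3.81 kb upstream: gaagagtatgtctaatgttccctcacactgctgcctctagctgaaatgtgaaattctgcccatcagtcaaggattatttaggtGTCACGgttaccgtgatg
Col19a1, 422 bp downstream: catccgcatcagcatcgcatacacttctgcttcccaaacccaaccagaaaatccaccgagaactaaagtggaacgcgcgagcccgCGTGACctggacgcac
Col24a1, 29.3 kb upstream: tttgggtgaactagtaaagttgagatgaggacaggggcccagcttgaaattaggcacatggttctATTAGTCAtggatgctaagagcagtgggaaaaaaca
Col7a1, 10.2 kb downstream: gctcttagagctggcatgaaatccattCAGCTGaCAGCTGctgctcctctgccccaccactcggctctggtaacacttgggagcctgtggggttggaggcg
Col4a1 and Col4a2, in an intron of Col4a1: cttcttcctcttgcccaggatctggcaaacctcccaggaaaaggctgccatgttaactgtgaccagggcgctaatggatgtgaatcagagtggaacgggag

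A Pax7 peak lay within 50 kb of the TSS of 27 of the 38 collagen genes (71.1%, 95% Wilson interval 55.2 to 83.0%), compared with 55.2% of the 22380 protein_coding genes. The interval treats each gene as 1 independent draw and covers counting error only, and its lower end equals the share of all genes to 3 digits. The members are autosomal by rule, and the share was 56.8% over autosomal coding genes. It was 58.8% over coding genes of 31.1 kb or more, the first quartile of collagen length, and both of these shares lie inside the interval. The 71.1% still covers all 38 collagens, so those shorter than 31.1 kb have no match in that background. The collagen genes lie in pairs at some loci. With 1 gene of each divergent pair left out, the lower end of the interval was 53.1%, below the share of all genes. The number of peaks per gene was 1.76 on average, against 1.11 for all protein_coding genes, with a median of 1 in both. A total of 10 collagen genes had 1 peak, 7 had 2, 3 had 3, 5 had 4 and 2 had 5 or more. At least 3 peaks were found at 10 of the 38 (26.3%), compared with 14.6% of all genes, and these 10 genes accounted for 43 of the 67 pairs. The 10 include Col4a1 and Col4a2, which count the same 3 peaks, and no interval was computed for the 26.3%.

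Few collagen promoters held a summit. One within 1 kb of the TSS was found for 2 collagen genes, Col19a1 and Col28a1 (5.26%, Wilson 1.46 to 17.3%), while 11.8% of all protein_coding genes had one, a share inside that interval. From the promoter outwards the order of the shares turned: within 10 kb it was 31.6% of collagen genes and 24.2% of all genes, within 25 kb 57.9% and 38.7%, and within 100 kb 84.2% and 71.7%. Counted in separate distance bands, the collagen genes had 0.418 times as many peaks per gene as all coding genes in the first 1 kb (2 peaks). The ratio was between 1.51 and 1.91 in every band from 1 to 100 kb. Going outwards, those bands held 6, 6, 21, 32 and 59 gene and peak pairs, and a peak shared by 2 collagen genes counts for both. Col19a1 alone had 3 summits within 5 kb, 9 within 50 kb and 15 within 100 kb. The ratios were not computed without it, and they have no interval.

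**Figure D1:**
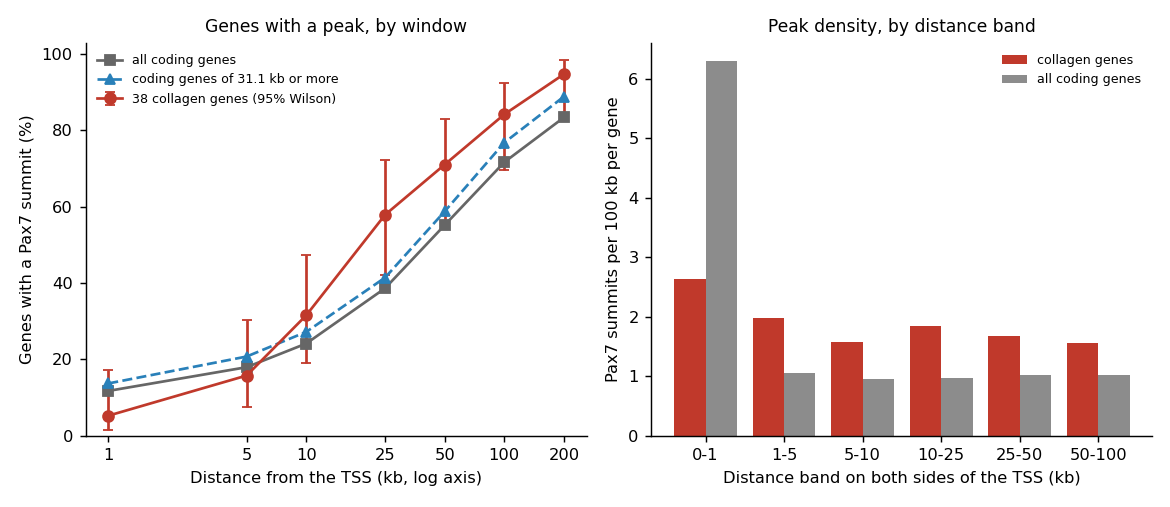
Left, the share of genes (%) with a Pax7 summit within 1 to 200 kb of the TSS (log axis), for the 38 collagen genes with 95% Wilson intervals, all protein_coding genes and coding genes of 31.1 kb or more; right, the number of summits per 100 kb per gene in successive distance bands for collagen genes and all coding genes. Collagen genes sit below the other curves at 1 kb (5.26% against 11.8%) and above them from 10 kb on.

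Collagen genes are long, and length was set beside the counts. Their median length was 106 kb, against 15.4 kb for all coding genes, and a median of 1 other coding TSS lay within 50 kb of a collagen TSS, against 2 around a coding gene in general. Among genes of at least 100 kb, 16 of 21 collagens had a peak (76.2%, Wilson 54.9 to 89.4%), compared with 57.4% of coding genes of that length, and the mean number of peaks was 2.38 against 1.14. These 21 include Col19a1, with 9 peaks, and the 4 collagen IV genes, whose 8 gene and peak pairs come from 4 distinct peaks. Of the collagens of 30 to 100 kb, 6 of 8 had a peak (59.6% of coding genes), and of those under 30 kb 5 of 9 did (53.4% of coding genes). Within the transcribed region, 23 of the 38 held at least 1 summit (60.5%), compared with 22.3% of all coding genes and 47.9% of coding genes of 31.1 kb or more. No interval was computed for the 60.5%, and the 38 include collagens shorter than 31.1 kb. The 67 summits inside collagen genes amounted to 1.55 per 100 kb, against 1.04 in coding genes of 31.1 kb or more, and the value was 1.28 without Col19a1, which alone held 16.

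The strength of the peaks lay close to that of all peaks. MACS2 fold enrichment, the ratio of ChIP signal to its local background at the summit, had a median of 5.06 over the 63 peaks (quartiles 4.06 and 6.40, range 2.72 to 13.1), compared with 5.22 over all peaks (quartiles 4.32 and 6.74). The median −log10 q-value was 11.5 against 11.6, and the median width 259 bp against 252 bp. Of the 63 peaks, 2 were enriched 10-fold or more (3.17%), compared with 6.99% of all peaks. Counted by gene, 2 of 38 collagens (5.26%) had such a peak within 50 kb, against 6.83% of protein_coding genes.

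**Figure D2:**
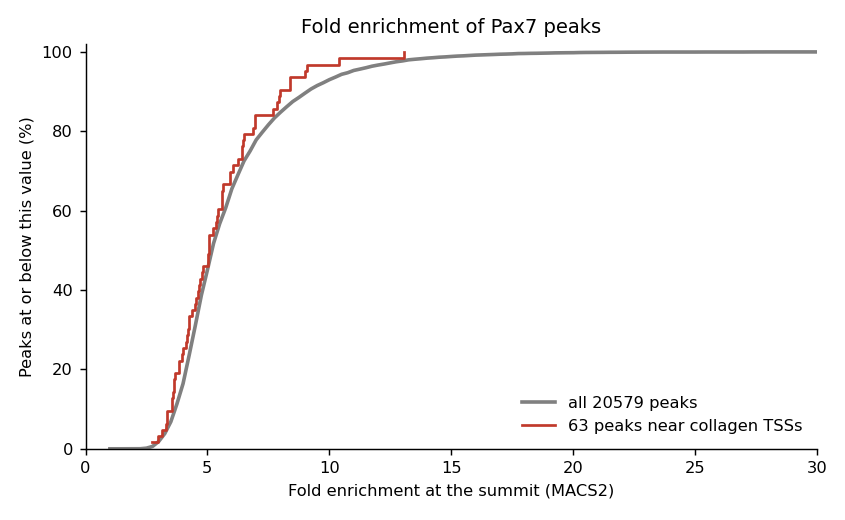
Cumulative share of peaks (%) against MACS2 fold enrichment for the 63 peaks within 50 kb of a collagen TSS (red steps) and all 20579 peaks (grey line). The red curve runs close to the grey one, with medians of 5.06 and 5.22, and ends at 13.1, whereas the strongest peak of the genome reached 28.

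Most of the 63 peaks lay away from any promoter. Intergenic sequence held 30 of them (47.6%) and introns 24 (38.1%), while coding exons held 2 and untranslated or other non-coding exon parts 1. Of the 63, 6 (9.52%) were within 1 kb of the start of a coding transcript. Among the 11347 peaks within 50 kb of any coding TSS, 24.5% were at a start, 33.1% intergenic and 38.8% intronic. Over all 20579 peaks the shares were 13.9, 41.9 and 41.5%. The Wilson intervals of the 63 were 4.44 to 19.3% at a start and 35.8 to 59.7% intergenic. Both include the share over all peaks, and neither includes that over peaks near a coding TSS. Of the 6 at a start, 4 sat at the start of a neighbouring gene rather than of the collagen. Those were a 9.0-fold peak 0.443 kb from the Adprhl2 TSS and 34.5 kb from Col8a2, a 4.00-fold peak 0.458 kb from Mios in the Col28a1 window, a 3.61-fold peak 0.05 kb from Cox7a2, a subunit of cytochrome c oxidase, in the Col12a1 window, and a 3.84-fold peak 0.148 kb from H2-Ke6 in the Col11a2 window. The nearest coding TSS belonged to a collagen gene for 54 of the 63 peaks, and 27 lay inside the collagen gene they were assigned to. No matching share over other genes was computed for these counts. Collagen TSSs also have fewer other coding TSSs within 50 kb, a median of 1 against 2. Of the 67 pairs, 37 had the peak upstream of the TSS (55.2%) and 30 downstream, compared with 50.5% upstream over all coding genes.

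**Figure D3:**
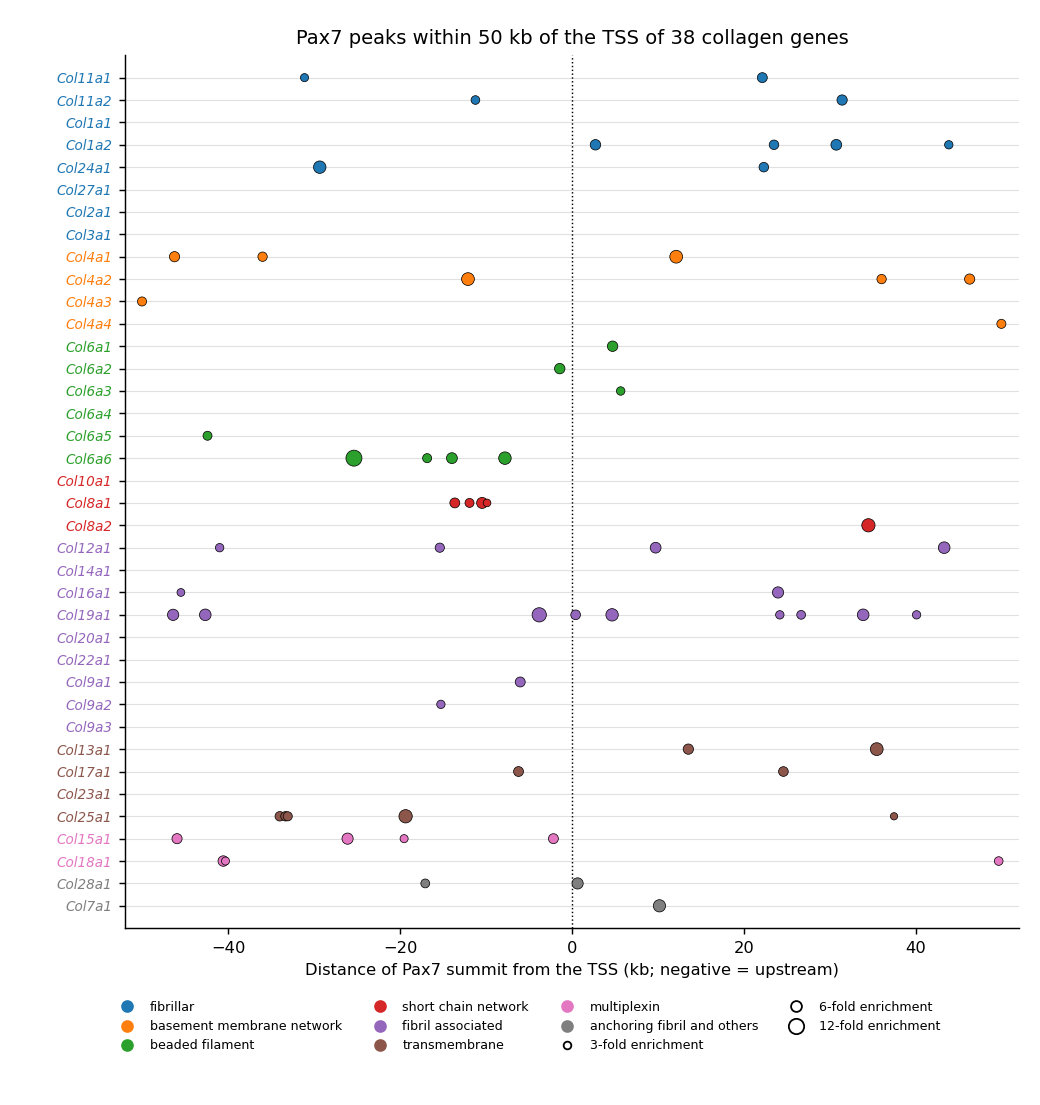
Each row is 1 of the 38 collagen genes, coloured by structural class, and each dot a Pax7 summit at its signed distance from the TSS (kb, negative upstream), with dot area proportional to fold enrichment. The 11 empty rows are genes with no peak within 50 kb, and 1 dot each of Col19a1 and Col28a1 falls within 1 kb of a TSS.

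Of the 8 fibrillar collagen genes, 4 had a peak within 50 kb. Col1a2, which encodes the second chain of collagen I, had 4 peaks, all downstream of its TSS. They lay at 2.73, 23.5, 30.7 and 43.8 kb, with folds of 5.60, 4.64, 5.93 and 3.60, and those at 2.73 and 30.7 kb were intronic. Its partner Col1a1, on another chromosome, had none within 50 kb, and its nearest summit was 55.3 kb upstream (6.26-fold). Col24a1, a minor fibrillar collagen of developing bone, had the strongest peak of the class, 7.91-fold at 29.3 kb upstream, and a second of 4.69-fold in a coding exon at 22.3 kb downstream. Col11a1 and Col11a2, which encode chains of the cartilage collagen XI, had 2 peaks each, between 3.36-fold and 5.41-fold. Col2a1, the main collagen of cartilage, Col3a1, abundant in distensible tissues, and Col27a1 had no peak, and their nearest summits were 89.0, 265 and 157 kb away.

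All 4 collagen IV genes of the autosomes had a peak, but from only 4 distinct peaks. Col4a1 and Col4a2, which make the most widespread collagen IV network, are transcribed in opposite directions from adjoining starts, and 3 peaks were shared by both. The strongest, of 8.37-fold (−log10 q 37.3), lay in a Col4a1 intron 12.1 kb from both starts, and the others, of 4.48-fold and 5.35-fold, were 36 and 46.2 kb away inside Col4a2. Col4a3 and Col4a4, which make the collagen IV of the glomerular basement membrane, share a bidirectional start as well, and 1 peak of 4.23-fold lay at the very edge of the window for both, 50.0 and 49.9 kb away, in an intron of Col4a4.

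Of the 6 collagen VI genes, 5 had a peak. Col6a6 carried the strongest of the 63 peaks, of 13.1-fold (−log10 q 61.4; chr9:105755618-105756036), in intergenic sequence 25.4 kb upstream, with an E-box 35 bp from its summit. By fold enrichment it was number 462 of the 20579 peaks. Its other 3 peaks were upstream as well, at 7.80 kb (7.99-fold), 14.0 kb (6.03-fold) and 16.8 kb (4.20-fold), and the one at 14.0 kb held ATTAGTCA. The genes of the main collagen VI trimer had 1 peak each, close to the TSS: Col6a2 at 1.43 kb upstream (5.58-fold, with both the paired-box core and an E-box), Col6a1 at 4.72 kb downstream in a coding exon (5.58-fold), and Col6a3 at 5.66 kb downstream (3.67-fold). Col6a5 had 1 of 4.13-fold at 42.4 kb upstream, in an intron of Col6a4. Col6a4, in the same cluster as Col6a5 and Col6a6, had none within 50 kb of its TSS, and its nearest summit was 57.7 kb downstream (7.36-fold). It had 5 summits within 100 kb, and 4 lay inside the gene, that of the Col6a5 window among them.

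The fibril-associated collagens, which coat or bridge fibrils, ranged from 9 peaks to none, with a peak at 5 of 9 genes. Col19a1, a collagen of basement membrane zones that is also expressed in developing muscle, had 9 peaks within 50 kb, 13.4% of all the pairs, and only 18 protein_coding genes (0.0804%) had 9 or more. The strongest, of 10.4-fold (−log10 q 40.1), was 3.81 kb upstream. The promoter peak, 422 bp downstream of the TSS, was 4.80-fold, and the others ranged from 3.57-fold to 7.87-fold, the latter at 4.66 kb downstream. A further 10 peaks lay deeper in the gene, of which 5 fell between 66.8 and 75.8 kb from the TSS, with folds of 3.63 to 8.16.

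**Figure D4:**
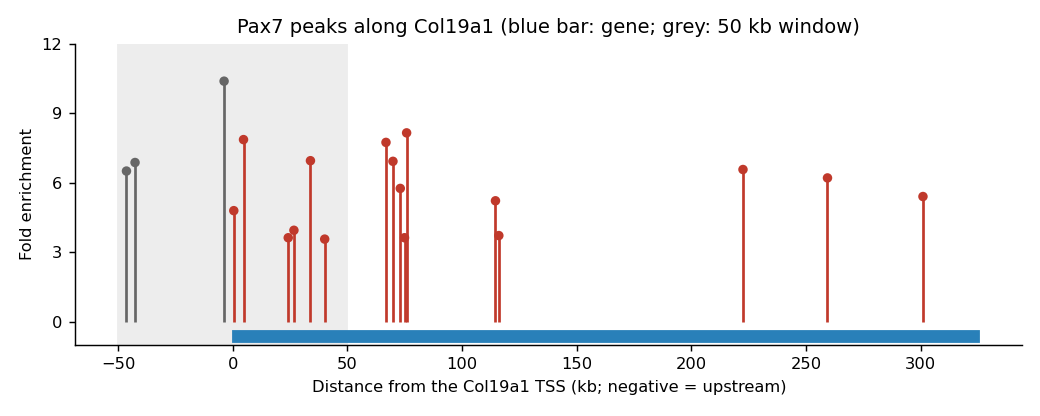
Fold enrichment of each Pax7 peak along Col19a1 against its distance from the TSS (kb, negative upstream), with peaks inside the gene in red, peaks outside in grey, the gene as a blue bar and the 50 kb windows shaded. The tallest stem, of 10.4-fold, stands 3.81 kb upstream, and 16 peaks lie inside the gene.

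Col12a1, found on fibrils of dense connective tissue, had 4 peaks, with 6.94-fold at 43.3 kb downstream and 5.93-fold at 9.73 kb downstream, both intronic, and 4.36-fold and 3.61-fold upstream. Col16a1 had 2 peaks, of 6.45-fold and 3.12-fold, the weaker in an intron of Bai2, and the stronger held 4 E-boxes at equal spacing. Col9a1 and Col9a2, chains of the cartilage collagen IX, had 1 each, of 5.07-fold and 3.57-fold, while Col9a3 had none within 50 kb (nearest summit 104 kb). Col14a1, Col20a1 and Col22a1, the last a collagen of tissue junctions such as that of muscle and tendon, had none either, and their nearest summits were 107, 284 and 167 kb away. With gene bodies included, Col14a1 held 3 summits and Col22a1 2, all beyond 50 kb from the TSS.

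Among the network-forming short chain collagens, Col8a1, a component of vascular and corneal matrix, had 4 peaks in a group between 9.88 and 13.6 kb upstream, with folds of 2.99, 6.24, 4.16 and 5.01 from the nearest to the farthest. Col8a2 had the 9.0-fold peak at the Adprhl2 start, and Col10a1, a collagen of hypertrophic cartilage, had none within 50 kb, with its nearest summit 92.6 kb away. Of the transmembrane collagens, Col25a1 had 5 peaks, 4 of them upstream: 3 weak ones between 33.1 and 34.0 kb (4.25-fold to 4.61-fold) and 1 of 9.07-fold at 19.3 kb. Its 1 downstream peak, of 2.72-fold at 37.4 kb, was the weakest of the 63. Col13a1, which is present at the neuromuscular junction, had an intronic peak of 8.39-fold at 35.4 kb and 1 of 5.44-fold at 13.5 kb. Col17a1, a hemidesmosome protein, had 2 peaks of 5.02-fold and 4.82-fold. Col23a1 had none in the window, although a peak of 13.1-fold (−log10 q 68.9) lay inside the gene at 67.9 kb downstream.

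Both multiplexins, collagens that carry glycosaminoglycans and are associated with basement membranes, had peaks. Col15a1 had 4, all upstream, at 2.16, 19.5, 26.1 and 45.9 kb, with folds of 5.06, 3.34, 6.40 and 5.23. Col18a1 had 3, of which the strongest, 5.64-fold at 40.6 kb upstream, was the only one of the 63 with a homeodomain dimer motif at its summit. Col7a1, the anchoring fibril collagen, had 1 intronic peak of 7.68-fold at 10.2 kb downstream. Col28a1 had a promoter peak of 6.40-fold (−log10 q 16.8), 652 bp downstream of its TSS in an intron, and the 4.00-fold peak at the Mios start.

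The rule's 50 kb limit ran through several loci. The pair of summits just inside it were those of Col4a3 at 50.0 kb (4.23-fold) and Col18a1 at 49.6 kb (3.85-fold). Just outside were summits at 50.5 kb from Col13a1 (4.87-fold) and 51.2 kb from Col6a5 (6.08-fold), and peaks of 10.5-fold and 10.0-fold lay 53.3 kb upstream of Col6a3 and 58.9 kb downstream of Col1a2. Of the 11 genes without a peak within 50 kb, 6 had none within 100 kb and 2, Col3a1 and Col20a1, none within 200 kb.

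**Figure D5:**
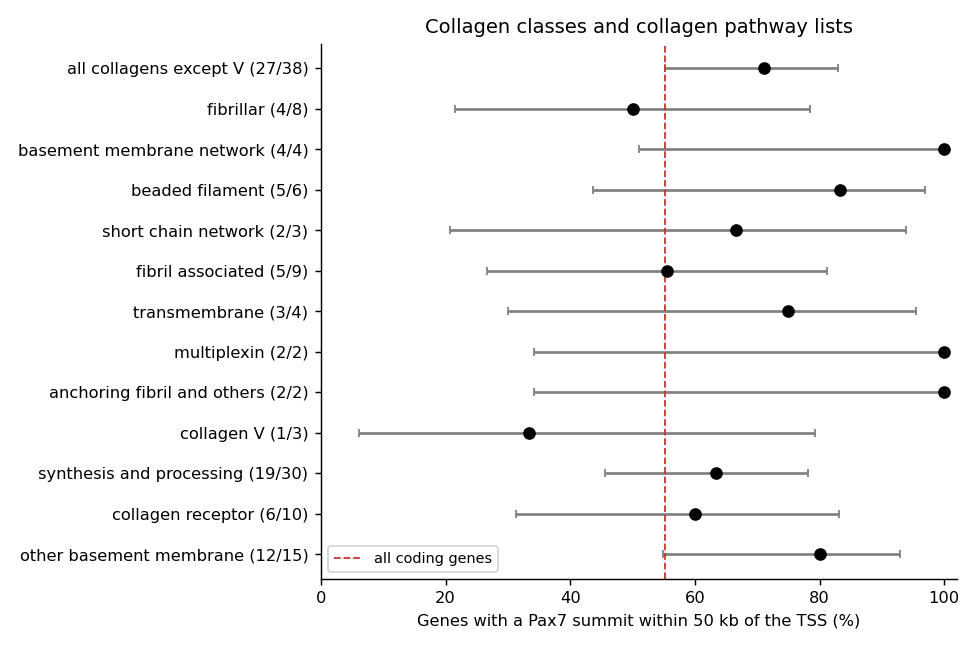
Share of genes (%) with a Pax7 summit within 50 kb of the TSS for all collagens other than V, their 8 structural classes, collagen V and 3 lists of genes that act with collagens, with 95% Wilson intervals (counting error only) and the share of all protein_coding genes (dashed line, 55.2%). The interval of every class and list either crosses the dashed line or, for all collagens other than V, starts at it.

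Genes that act with the collagens were counted in the same way. Of 30 genes of collagen synthesis and processing (hydroxylases, chaperones, propeptide proteases and cross-linking enzymes), 19 had a peak (63.3%). Loxl1, a lysyl oxidase that cross-links collagen and elastin, had the strongest, of 11.7-fold at 38 kb downstream, and Fkbp10, an endoplasmic reticulum prolyl isomerase for procollagen, had 1 of 10.3-fold at 39.5 kb upstream. Of 10 collagen receptors 6 had a peak. Itgb1, the β1 chain common to the collagen-binding integrins, had 4, among them 1 of 10.9-fold at 41.8 kb downstream and 1 of 5.06-fold 0.676 kb downstream of its TSS. Of 15 other basement membrane genes 12 had a peak (80.0%, Wilson 54.8 to 93.0%), and Lamc1, the laminin γ1 chain, had 4, of which the strongest was 11.2-fold at 40.4 kb downstream. Collagen V, set apart by the rule, had a peak at 1 of 3 genes, of 5.56-fold at 25.3 kb upstream of Col5a1. With all protein_coding genes at 55.2%, the intervals of these 4 lists all included that share.

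The base composition and motif content of the collagen peaks lay close to those of all peaks. Over the summit base and 50 bases on either side, the median GC content was 44.6% against 45.5% over all peaks and the median number of CpGs 1 against 2. The paired-box core was present within 50 bp of the summit in 7 of 63 peaks (11.1%) and in 11.1% of all peaks, ATTAGTCA in 2 (3.17%) and 2.94%, the homeodomain dimer, TAAT and ATTA spaced by 2 or 3 bases, in 1 (1.59%) and 1.82%, and the E-box in 9 (14.3%) and 15.7%. A Pax motif of any of the 3 kinds was found in 10 of 63 (15.9%), against 15.4% of all peaks. The ATTA of the dimer can overlap that of ATTAGTCA, and CAGCTG is its own complement and was counted once. Windows of the same length 500 bp to either side held a Pax motif in 0 and 0 of the 63, against 2.05% and 2.25% of all peaks, and an E-box in 3 and 3. The 7 peaks with the paired-box core belonged to 6 genes, Col11a2, Col16a1, Col17a1, Col19a1 (2 peaks), Col28a1 and Col6a2, and 53 of the 63 peaks held no Pax motif as spelled here.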

How the data were processed

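Pax7 ChIP-seq was done on 2 Pax7 and 2 input libraries of Dox-treated iPax7 cells. Per the study's methods, mm9 alignment by the authors used bowtie2 (2.3.4.1), with Picard (1.88) for duplicate removal, and MACS2 (2.1.1) then called narrow peaks on the merged replicates at a q-value of 0.01. The deposited list gives each peak's fold enrichment, a ratio of ChIP signal over local background, its −log10 q-value, and its position. Merging leaves no replicate error, and the list holds no depth per sample, although the study reports read counts for each library. No column of per-sample values was present, so no paired analysis was possible because the replicates are pooled.

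Summits were assigned to every protein_coding TSS (gene 5′ end, GENCODE vM1) within 50 kb, or 1 kb for promoters, so a peak can count for several genes. Sequences came from NCBIM37. The 95% Wilson intervals cover some of the shares only. None was computed for the shares with a summit in the transcribed region, with the peak upstream, or with at least 3 peaks. The share of genes with a 10-fold peak has none either. No p-value was computed. Scripts used Python 3.11.15, pandas 2.3.3, scipy 1.17.1 and pysam 0.24.0 and were tested on simulated data. The collagen genes, the structural classes and the pathway lists were chosen with earlier results of these data known. The genes named were those without a peak, those with a promoter peak, the 5 with most peaks (ties kept), those of the 10 strongest peaks, up to 4 per class, and pathway genes with a peak of at least 10-fold. Further genes and peaks, at neighbouring starts, beyond the window or with a motif, were named after their values were seen. Alternatives covered the peak threshold, the window, the assignment of peaks and the background genes.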

Additional observations from a re-analysis of the deposited data

How the results depend on the processing

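Of 67 recomputed values, 55 stayed close to the first value and 12 moved. The collagen share with a peak stayed above that of all genes in each setting tried, whereas the median fold, below that of all peaks at 50 kb (5.06 against 5.22), was above it within 100 kb (5.38 against 5.22). With peaks of at least 5-fold, 34 peaks remained of 63, 1 promoter of 2, the mean per gene was 0.947 (1.76 before) and the median fold 6.32. Within 25 kb there were 34 peaks (mean 0.921) and within 100 kb 112 (mean 3.32). Counting each peak only for its nearest coding TSS, the difference from all genes grew from 15.9 to 28.6 percentage points (60.5% against 31.9%). The share of all genes fell from 55.2% and that of the collagens from 71.1%. This rule takes peaks from genes with close neighbours, and a median of 1 other coding TSS lay within 50 kb of a collagen TSS, against 2 in general. What part of the growth comes from this spacing was not tested. With promoters widened to 5 kb, 6 collagen genes had a summit (15.8%, against 18.0% of all coding genes). Chosen after seeing the data, leaving out 1 gene of each divergent pair kept 25 of 36 genes with a peak, a restriction to genes of at least 100 kb left 16 of 21 collagens with a peak, and without Col19a1 1 promoter remained and the mean was 1.57. Replicates were merged before calling, so leaving 1 out was not possible, and the depth that limits weak peaks is not given by the list. Distance assigns a peak to a gene without showing that it regulates it.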
